A study of Mus musculus with 9 samples.

Results

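Transcript levels of 9 transcription factor genes were followed across 9 RNA-seq libraries: the SoxB1 genes Sox1, Sox2 and Sox3, the SoxB2 gene Sox21, the SoxC gene Sox11, the paired box genes Pax6 and Pax3, the Iroquois gene Irx3 and the zinc finger gene Zic2. The genes were picked by symbol, and all 9 were found among the 24736 genes of the expression table. The libraries came from mouse caudal epiblast-like cells (CEpiLCs), an embryonic stem (ES) cell-derived counterpart of the progenitors that extend the trunk. WT cells, cells lacking Cdx1, Cdx2 and Cdx4 (CdxKO) and cells lacking T, also named Bra (T/BraKO), each gave 3 biological replicates that were collected on day 3, at 72 h. All 9 cultures received 10 ng per ml of bFGF and 5 uM of the Porcupine inhibitor LGK974, which blocks WNT secretion, with the WNT agonist CHIR99021 added for the last part of the culture. The study's methods derive its ES cell lines from a male HM1 TetON line, which is the WT here, and the labels name 1 line for each genotype. Lines and mutations therefore cannot be told apart.

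SoxB1 proteins are HMG box factors that bind DNA with partner factors. They maintain progenitors of the epiblast and of the neural tube, and in posterior progenitors SOX2 is known to oppose T, which drives cells towards mesoderm. SOX21 counteracts SoxB1 proteins, SOX11 acts in neural precursors and young neurons, and PAX6, PAX3 and IRX3 pattern the neural tube along its dorsoventral axis. ZIC2 acts in the epiblast and in the dorsal neural tube.

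Total expected counts, the estimates of reads per gene made by RSEM, ranged from 25124344 to 34705361 in a library. The targeted genes went with the labels. T fell from 431 ± 68.8 TPM (a transcript share scaled to length; SD, n = 3) in WT to 78.9 ± 18.8 in T/BraKO, and Cdx2 was at 141 ± 58.8 TPM in WT and 34.5 ± 17.2 in CdxKO. The 10 caudal epiblast genes summed to between 611 and 1267 TPM, so markers of the labelled cells were present in every library. The Y-linked gene Ddx3y had 25.5 to 40.5 TPM in WT and T/BraKO and no count in CdxKO, while Hprt had 191 to 220.2 TPM in T/BraKO and 0.90 to 1.54 elsewhere. The lines thus differed in genes other than those targeted, although the study's methods give them 1 male parent line. The paper cites an earlier study beside its mutant ES cells, and its methods do not describe making them. No 2 libraries of a group agreed within counting error, so none was treated as a repeat of another.

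Same-numbered libraries moved together. A normalised count is a count divided by the DESeq2 size factor of its library, and 12316 genes averaged 50 or more of them. Across these genes, deviations from the genotype mean correlated at 0.532 to 0.814 between same-numbered libraries (9 pairs, mean 0.703). Between libraries of different genotype and number (18 pairs) the values ran from -0.690 to 0.134. Their mean was -0.340, which centring each genotype pushes below 0. Genes are not independent points in these correlations. The labels do not say what cultures with the same number shared. The genotype comparisons were therefore made by 2 DESeq2 fits, on genotype alone and on genotype with the replicate number as blocking term (the block).

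The positions of the genes on GRCm38, the assembly also named mm10, were taken from GENCODE M21. Sox2 (chr3:34650405-34652461, plus strand), Sox1 (chr8:12395295-12400126, plus strand), Sox3 (chrX:60891366-60893430, minus strand), Sox11 (chr12:27334264-27342574, minus strand) and Sox21 (chr14:118233232-118237030, minus strand) have a single exon. Irx3 lies at chr8:91798525-91802067 on the minus strand, Pax6 at chr2:105668900-105697364 on the plus strand, Pax3 at chr1:78101267-78197134 on the minus strand and Zic2 at chr14:122475435-122479852 on the plus strand. Sox2 sits in an intron of the noncoding gene Sox2ot, which had at most 6 counts in a library, and Sox1 overlaps Sox1ot, with at most 4. Exons of Irx3 and Irx3os, and of Sox21 and Gm4675, overlap on opposite strands, and the authors' counting used strand.

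RefSeq promoter windows were at hand for 6 of the 9 genes. The 250 bases before the RefSeq start are shown for Sox2, the member with the most of its variation between replicate numbers, and Sox11, the member with the highest level. The Sox2 window is chr3:34649745-34649994 on the plus strand and the Sox11 window chr12:27342719-27342968 on the minus strand of GRCm38.p6, both 5′ to 3′. Capitals mark matches to letters known from SOX or TCF/LEF sites (ACAAAG) and CDX sites (TTTAT).
Sox2: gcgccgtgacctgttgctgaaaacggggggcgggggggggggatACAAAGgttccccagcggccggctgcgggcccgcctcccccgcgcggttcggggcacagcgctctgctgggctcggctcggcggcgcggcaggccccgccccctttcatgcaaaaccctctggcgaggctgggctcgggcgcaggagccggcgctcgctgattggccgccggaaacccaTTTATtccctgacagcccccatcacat
Sox11: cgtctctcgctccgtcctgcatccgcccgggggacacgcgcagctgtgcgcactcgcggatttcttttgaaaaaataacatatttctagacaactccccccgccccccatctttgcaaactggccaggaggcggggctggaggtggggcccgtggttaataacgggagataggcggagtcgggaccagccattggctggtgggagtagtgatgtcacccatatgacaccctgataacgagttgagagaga
In the Sox2 window the first match begins 206 bases before the start and the second 27 bases before it. Of 32851 windows of this length, 16.46% held ACAAAG and 37.26% held TTTAT on either strand, so both are common. The strings ACAAT, found in 27.66% of windows, and CTTTGA, found in 13.83%, as well as the T-box letters TCACAC (12.29%), had no match in the Sox2 window. The Sox11 window held none of the 5 strings. All were chosen after the windows had been seen, and ACAAT shares its first 4 letters with ACAAAG.

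On the per-length scale Sox11 was the highest of the 9 genes, with a mean of 70.1 TPM and a range of 59.2 to 80.1. Zic2 followed with 51.4 TPM (34.5 to 65.8), Sox3 with 30.4 (20.3 to 39.9) and Sox2 with 20.2 (10.4 to 28.8). Between neighbours in this order, Sox11 and Zic2, Zic2 and Sox3, and Sox3 and Sox2 overlapped in their ranges over the 9 libraries. Irx3, at 4.88 TPM (2.60 to 10.9), and Sox1, at 4.77 TPM (1.09 to 10.6), could not be ordered, and their highest values just reached the lowest of Sox2. Sox21 had 0.544 TPM (0.29 to 0.84), Pax3 0.133 and Pax6 0.0767. The range of Sox21 overlapped that of Pax3 (0.08 to 0.32), and those of Pax3 and Pax6 (0.02 to 0.16) overlapped. The set thus spanned genes among the well expressed and genes close to the limit of counting. Pax6 had under 10 counts in all 9 libraries and 3 or fewer in 5 of them, and Pax3 had under 10 in 8 of 9.

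**Figure D1:**
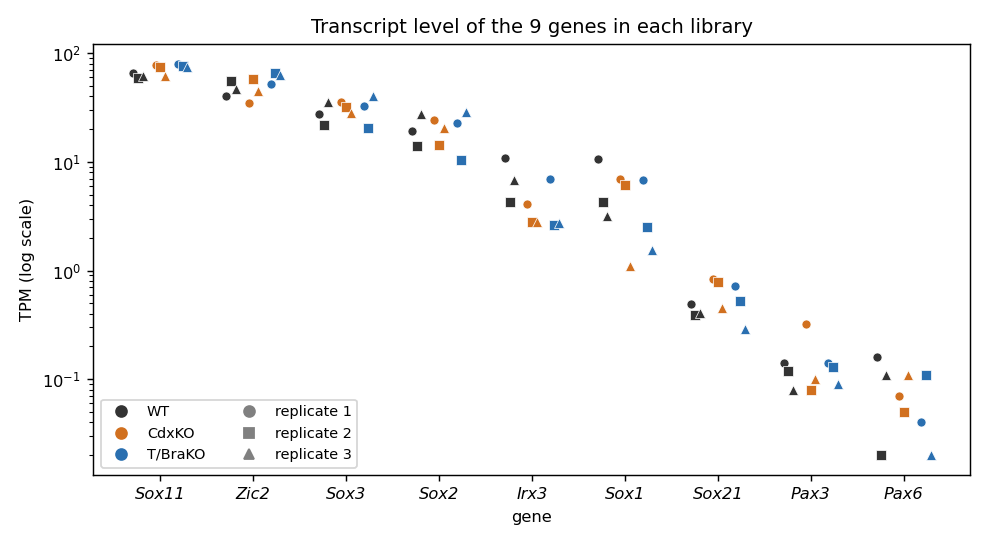
Level of each of the 9 genes in TPM on a log axis, one point per library, coloured by genotype and shaped by replicate number. Sox11, Zic2, Sox3 and Sox2 lie above 10 TPM in every library, and Pax3 and Pax6 lie at or below 0.32 TPM.

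Among the relatives of these genes, the SoxC genes Sox4 and Sox12 had means of 47.3 and 29.0 TPM and Zic5 had 17.5. Irx5 had 1.34 TPM, Pax7 0.153 and the Notch target Hes5, a neural progenitor gene, 1.43. The pluripotency gene Pou5f1 stood at 1041 TPM and Nes, an intermediate filament gene of neural progenitors that is not restricted to them, at 108. Olig2, a ventral neural tube gene, had 0.0567 TPM. Of the genes called neural fate genes here, Sox2, Sox3, Zic2 and Sox11 were well expressed, while Pax6 and Pax3 were close to the limit of counting. The 21 other neural progenitor genes were as uneven: they summed to between 253 and 379.6 TPM in a library, with Cdh2 at 82.2 TPM, Msi1 at 57.5, Sp8 at 25.9, Fabp7 at 13.3 and Hes3 at 9.57, several of which are not restricted to neural cells.

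Sox2 had 663, 472 and 967 normalised counts in WT replicates 1, 2 and 3. It had 846, 480.4 and 713 in CdxKO and 805, 364 and 1027 in T/BraKO. In every genotype the lowest library was number 2, and the 3 genotypes overlapped fully. By DESeq2 with genotype alone, the log2 fold change of Sox2 against WT was -0.04 in CdxKO (95% interval -0.78 to 0.69, adjusted p = 1) and 0.06 in T/BraKO (-0.67 to 0.80, adjusted p = 1). When the block was added the values were -0.02 (-0.31 to 0.27, adjusted p = 0.983) and 0.0082 (-0.28 to 0.30, adjusted p = 0.986). A change of Sox2 in cells lacking the Cdx genes or T was not shown, and the intervals give the size of change that these data still allow.

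Sox3, the other SoxB1 gene well expressed in these cells, had 789, 615 and 1046 normalised counts in WT, 1028, 899 and 815 in CdxKO and 961, 589 and 1185 in T/BraKO. It was lowest in number 2 in WT and T/BraKO, but in number 3 in CdxKO. Its log2 fold change with genotype alone was 0.16 in both CdxKO and T/BraKO (SE 0.27, adjusted p = 1 in both, DESeq2). With the block it was 0.21 in CdxKO (SE 0.25, adjusted p = 0.806 in DESeq2) and 0.14 in T/BraKO (SE 0.25, adjusted p = 0.800). One library bore on this: without CdxKO replicate 3, Sox3 was higher in CdxKO by 0.48 (adjusted p = 0.0129, DESeq2 with the block).

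Sox1, which marks the neural plate at its onset, had 599, 238 and 183 normalised counts in WT, 398, 346 and 63.0 in CdxKO and 395, 146 and 91.5 in T/BraKO. Number 3 was the lowest library in every genotype, and the highest library exceeded the lowest 9.50-fold, the widest spread of the 9 genes. In T/BraKO each library lay below the same-numbered WT library. By DESeq2 with genotype alone the log2 difference from WT was -0.69 in T/BraKO and -0.34 in CdxKO (SE 0.86, adjusted p = 1 in both). With the block it was -0.78 in T/BraKO (95% interval -1.67 to 0.10, adjusted p = 0.316) and -0.46 in CdxKO (-1.34 to 0.43, adjusted p = 0.754). Without CdxKO replicate 2, the 1 CdxKO library above its same-numbered WT library, Sox1 was lower by 0.98 in CdxKO (adjusted p = 0.000555) and by 0.77 in T/BraKO (adjusted p = 0.00121). Without CdxKO replicate 3 it was lower by 0.75 in T/BraKO (adjusted p = 0.0208). Leaving out a CdxKO library changes no T/BraKO or WT library, and the T/BraKO estimates stayed near -0.78. These T/BraKO calls are thus not further evidence that Sox1 fell in T/BraKO.

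Sox21 had 25.9, 20.3 and 22.4 normalised counts in WT, 45.1, 42.0 and 24.5 in CdxKO and 39.7, 28.4 and 16.1 in T/BraKO. All 3 CdxKO libraries exceeded their same-numbered WT libraries, yet the groups overlapped and the log2 difference was 0.70 with genotype alone (SE 0.44, adjusted p = 1 in DESeq2) and 0.65 with the block (SE 0.44, adjusted p = 0.547). Pax6 had between 0.897 and 7.88 normalised counts and Pax3 between 4.46 and 16.3. At this depth no difference in Pax6 or Pax3 was detectable, and the 95% interval for Pax6 in CdxKO against WT ran from -2.33 to 1.84 on the log2 scale.

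Irx3, a factor of progenitors in the intermediate neural tube, was lower in both mutants once the replicate number was taken into account. It had 354, 138 and 225 normalised counts in WT, 135, 91.1 and 94.1 in CdxKO and 232, 86.1 and 94.2 in T/BraKO. All CdxKO libraries lay below all WT libraries, which held for 9.87% of the 12316 genes in that comparison, whereas T/BraKO overlapped WT through its replicate 1. With genotype alone, Irx3 did not pass in CdxKO (a change of -1.16 in log2, SE 0.44, adjusted p = 0.441, DESeq2) or in T/BraKO (-0.80, SE 0.44, adjusted p = 1). With the block it passed in both, at -1.09 (SE 0.22, adjusted p = 5.63e-05), or 0.471 times WT, and -0.84 (SE 0.22, adjusted p = 0.00258), or 0.558 times WT. The difference held in 3 of 3 same-numbered pairs in each mutant. The blocked call in CdxKO held when each of the 9 libraries was left out. In T/BraKO it was lost without T/BraKO replicate 3 (-0.68, adjusted p = 0.127), WT replicate 1 (-0.84, 0.102) or WT replicate 3 (-0.70, 0.135). In bulk RNA, fewer cells that express a gene and less RNA per cell cannot be told apart.

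Zic2 was higher in T/BraKO than in either other genotype with the block. It had 1675, 2293 and 1999 normalised counts in WT, 1441, 2377 and 1906 in CdxKO and 2241, 2773 and 2726 in T/BraKO. Number 1 was lowest and number 2 highest in every genotype, so WT and T/BraKO overlapped although each T/BraKO library exceeded its WT partner. By DESeq2 with genotype alone the log2 difference of T/BraKO from WT was 0.38 (SE 0.20, adjusted p = 1), and with the block it was 0.38 (SE 0.08, adjusted p = 8.71e-05). Against WT the CdxKO cells differed by -0.06 with genotype alone (SE 0.20, adjusted p = 1) and by -0.07 with the block (SE 0.08, adjusted p = 0.797). The direct comparison of CdxKO with T/BraKO gave -0.43 (SE 0.20, adjusted p = 0.337) with genotype alone and -0.45 (SE 0.08, adjusted p = 6.28e-07) with the block. The blocked calls held when each of the 9 libraries was left out.

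Sox11 was also higher in T/BraKO with the block. It had 7869.5, 7024 and 7629 normalised counts in WT, 9424, 8882 and 7465 in CdxKO and 9907, 9318 and 9292 in T/BraKO. All T/BraKO libraries lay above all WT libraries, where 9.92% of the 12316 genes did not overlap in that comparison, and CdxKO lay between them with replicate 3 inside the WT range. The log2 difference of T/BraKO from WT was 0.34 in both DESeq2 fits, with adjusted p = 0.113 for genotype alone (SE 0.11) and 2.22e-05 with the block (SE 0.07), a fold of 1.27. The blocked call held when each of the 9 libraries was left out. In CdxKO the difference from WT was 0.19 in both fits, with adjusted p = 1 for genotype alone (SE 0.11) and 0.0748 with the block (SE 0.07). Without CdxKO replicate 3 it was 0.28 with the block (adjusted p = 0.000297). CdxKO and T/BraKO differed by -0.15 in both fits (adjusted p = 0.747 and, with the block, 0.125), so a difference between the mutants was not shown for Sox11.

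**Figure D2:**
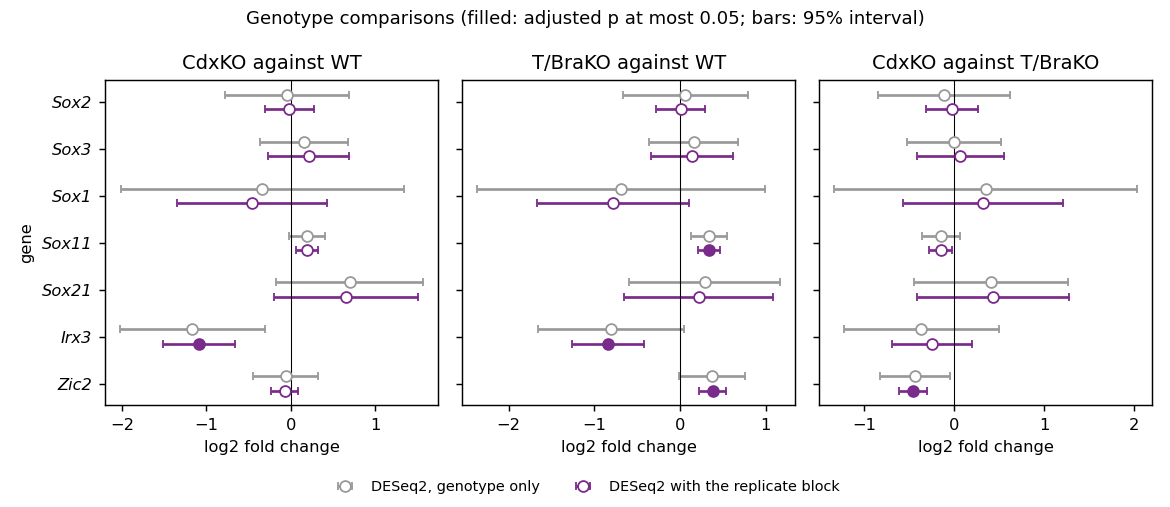
Log2 fold changes of 7 of the genes in the 3 genotype comparisons with 95% intervals, from DESeq2 with genotype alone (grey) and with the replicate block (purple), filled where the adjusted p was at most 0.05. Irx3 lies near -1 in CdxKO, and Sox11 and Zic2 lie between 0.3 and 0.4 in T/BraKO with shorter bars under the block, while Sox2 stays near 0. Pax6 and Pax3 are not drawn because of their low counts.

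By DESeq2 with genotype alone, 0 of 9 genes passed in CdxKO against WT, where 0.693% of 16737 genes passed, 0 of 9 in T/BraKO against WT, where 1.08% passed, and 0 of 9 in CdxKO against T/BraKO, where 3.48% passed. In each of these comparisons 1 of the 9 had an unadjusted p under 0.05 (Irx3, Sox11 and Zic2 in turn), and edgeR without the block called 0, with 0.110%, 0.385% and 1.63% of all genes tested. With the block, 1 of the 7 genes with an adjusted p passed in CdxKO against WT (5.31% of all genes tested), 3 of 6 in T/BraKO against WT (9.68%) and 1 of 8 in CdxKO against T/BraKO (14.6%). Over all 9 members, those without an adjusted p included, the median log2 fold change with the block was -0.02 in CdxKO and 0.14 in T/BraKO. Over all genes tested it was -0.0019 and 0.016. The edgeR quasi-likelihood test with the block called the same 1, 3 and 1 genes, against 4.61%, 9.37% and 18.5% of all genes. Split by direction, the blocked DESeq2 fit called 3.40% of genes higher and 1.91% lower for CdxKO relative to WT. For T/BraKO relative to WT these shares were 4.83% and 4.85%, and for CdxKO relative to T/BraKO they were 7.75% and 6.90%.

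Some related genes passed, from short lists of tested genes. The values that follow are from the blocked fit, and with genotype alone 0 of 14 other Sox genes passed in either mutant against WT. With the block, Zic5 rose with Zic2 in T/BraKO, by 0.36 on the log2 scale (SE 0.11, adjusted p = 0.0208 in DESeq2), and with genotype alone it did not pass (0.35, adjusted p = 1). Zic5 is the neighbour of Zic2, on the opposite strand with 9757 bp between the gene bodies. Irx5, in the same gene family as Irx3, differed by -0.47 in CdxKO (SE 0.38, adjusted p = 0.660) and by -0.41 in T/BraKO (SE 0.38, adjusted p = 0.590). Of the other Sox genes, 0 of 11 tested passed in CdxKO and 1 of 6 in T/BraKO, where Sox9, a neural crest and chondrogenic factor, fell by 0.75 (SE 0.16, adjusted p = 0.000165). Sox9 was the 1 passing gene of 4 tested neural crest genes in that comparison, as the 2 lists share it.

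Other neural progenitor genes were called in both directions. For scale, 5.31% of all genes tested passed with the block in CdxKO against WT, 9.68% in T/BraKO against WT and 14.6% between the mutants. With the block 0 of 14 tested rose and 1 fell in CdxKO against WT, namely Msx1, a roof plate and BMP target gene, by 1.74 (SE 0.26, adjusted p = 4.74e-09 in DESeq2), which also passed with genotype alone (-1.91, adjusted p = 0.0380). In T/BraKO 1 of 8 rose and 2 fell: Sp8 rose by 0.29 (adjusted p = 0.00297), Fabp7, a radial glial lipid-binding protein, fell by 1.19 (adjusted p = 1.06e-05) and the cadherin gene Cdh2 fell by 0.32 (adjusted p = 2.15e-05). With genotype alone these calls were lost, and 0 of 21 passed in T/BraKO. Among 11 neuronal genes, Stmn2 rose in CdxKO by 0.26 (adjusted p = 0.00358) as the 1 of 9 tested. In T/BraKO Elavl3 rose by 0.59 (adjusted p = 0.0271) and Isl1, a LIM factor of motor neurons and several other lineages, fell by 3.18 (adjusted p = 1.11e-08), 2 of 8 tested. With genotype alone Isl1 passed (-3.15, adjusted p = 2.45e-06) and Stmn2 and Elavl3 did not (adjusted p = 0.759 and 0.758).

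Markers of other cell states were also called between genotypes. Against WT, the blocked fit called 3.40% of all genes tested higher and 1.91% lower in CdxKO. In T/BraKO these shares were 4.83% and 4.85%. The lists are short, so small counts are not read as results. Of the paraxial mesoderm genes 5 of 7 tested fell and none rose in T/BraKO with the block, and 1 of 7 fell in CdxKO. Their summed level was 37.9 to 63.9 TPM in T/BraKO, 83.3 to 151 in WT and 55.1 to 173 in CdxKO. Of the caudal epiblast genes, which include T, Cdx1, Cdx2 and Cdx4 themselves, 7 of 10 fell and none rose in CdxKO, and 4 rose and 3 fell in T/BraKO. Of the fibroblast genes 2 of 6 rose and 1 fell in CdxKO, and 3 of 6 fell in T/BraKO. Of the pluripotency genes, 2 of 10 rose in each mutant against WT and none fell, and Pou5f1 was higher by 0.55 in T/BraKO (adjusted p = 3.01e-14, DESeq2 with the block). With genotype alone fewer passed, where 0.693% of all genes tested passed in CdxKO and 1.08% in T/BraKO. In T/BraKO 3 of 12 paraxial mesoderm, 3 of 10 caudal epiblast and 1 of 7 fibroblast genes fell and 0 of 10 pluripotency genes passed, and in CdxKO 5 of 10 caudal epiblast genes fell, 1 of 10 pluripotency genes rose and 0 of 12 paraxial mesoderm and 0 of 7 fibroblast genes passed. The part of these markers in the differences of Irx3, Sox11 and Zic2 was not tested.

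The second comparison followed the replicate numbers, with genotype as a term in the DESeq2 fit, so that each number was represented by 1 library of each genotype. Sox2 rose in number 1 against number 2 by 0.81 on the log2 scale (SE 0.15, adjusted p = 1.03e-06), or 1.76-fold, and in number 3 against number 2 by 1.04 (SE 0.15, adjusted p = 4.33e-11), or 2.05-fold. Its 3 number 2 libraries had 364 to 480.4 normalised counts, below all of the other 6, which had 663 to 1027. Such separation from number 2 was seen for 37.9% of 12316 genes in number 1 and for 51.5% in number 3. Numbers 3 and 1 differed by 0.22 (SE 0.15, adjusted p = 0.313). The call in number 1 against number 2 was lost without T/BraKO replicate 1 (0.77, adjusted p = 0.0617). Without CdxKO replicate 3, Sox2 was also higher in number 3 than in number 1, by 0.44 (adjusted p = 0.0320).

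Sox1 did not follow Sox2. Number 3 libraries had 63.0 to 183 normalised counts of Sox1 and number 1 libraries 395 to 599, with no overlap (as for 30.2% of 12316 genes), and the log2 difference of number 3 from number 1 was -2.09 (SE 0.45, adjusted p = 0.000102, DESeq2). Against number 2, number 3 was lower by 1.18 (SE 0.45, adjusted p = 0.0260), a call that was lost without CdxKO replicate 1, T/BraKO replicate 1, T/BraKO replicate 3 or WT replicate 1 (adjusted p of 0.0524 to 0.0782). It passed at a smaller size without CdxKO replicate 2 (-0.64, adjusted p = 0.0158) or CdxKO replicate 3 (-0.73, adjusted p = 0.0239). Number 1 against number 2 gave 0.92 (SE 0.45, adjusted p = 0.108), which passed in edgeR (adjusted p = 0.0285). In DESeq2 it passed without CdxKO replicate 2 (1.49, adjusted p = 2.8e-10) or CdxKO replicate 3 (0.99, adjusted p = 0.000154). Number 3 thus had the highest mean of Sox2 and the lowest of Sox1, 902 ± 167 and 112 ± 62.5 normalised counts (SD, n = 3).

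Sox3 was near the threshold. It was higher in number 3 than in number 2 by 0.55 (SE 0.25, adjusted p = 0.0571) and in number 1 than in number 2 by 0.40 (SE 0.25, adjusted p = 0.213). Without CdxKO replicate 3 the differences were 0.83 (adjusted p = 1.01e-08) and 0.42 (adjusted p = 0.00205), all from DESeq2. Without CdxKO replicate 2 they were 0.77 (adjusted p = 7.44e-06) and 0.65 (adjusted p = 0.000442).

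Irx3 was highest in number 1 of every genotype and lowest in number 2. Number 1 exceeded number 2 by 1.14 (SE 0.22, adjusted p = 3.99e-06, DESeq2), or 2.20-fold, and number 3 fell below number 1 by 0.83 (SE 0.22, adjusted p = 0.00183). The latter call was lost without T/BraKO replicate 1, T/BraKO replicate 3 or WT replicate 1 (adjusted p of 0.0661 to 0.110). Zic2 went the other way between numbers 1 and 2, with number 1 lower by 0.49 (SE 0.08, adjusted p = 3.41e-08). Zic2 was higher in number 3 than in number 1 by 0.31 (SE 0.08, adjusted p = 0.00185), a call lost without CdxKO replicate 1 (0.24, adjusted p = 0.0555) or T/BraKO replicate 3 (0.28, adjusted p = 0.0693). Sox11 and Sox21 passed in none of the 3 comparisons of numbers, with adjusted p of 0.0948 to 0.639 over both genes. Without WT replicate 3, Sox11 was lower in number 3 than in number 1 (-0.23, adjusted p = 0.0387).

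**Figure D3:**
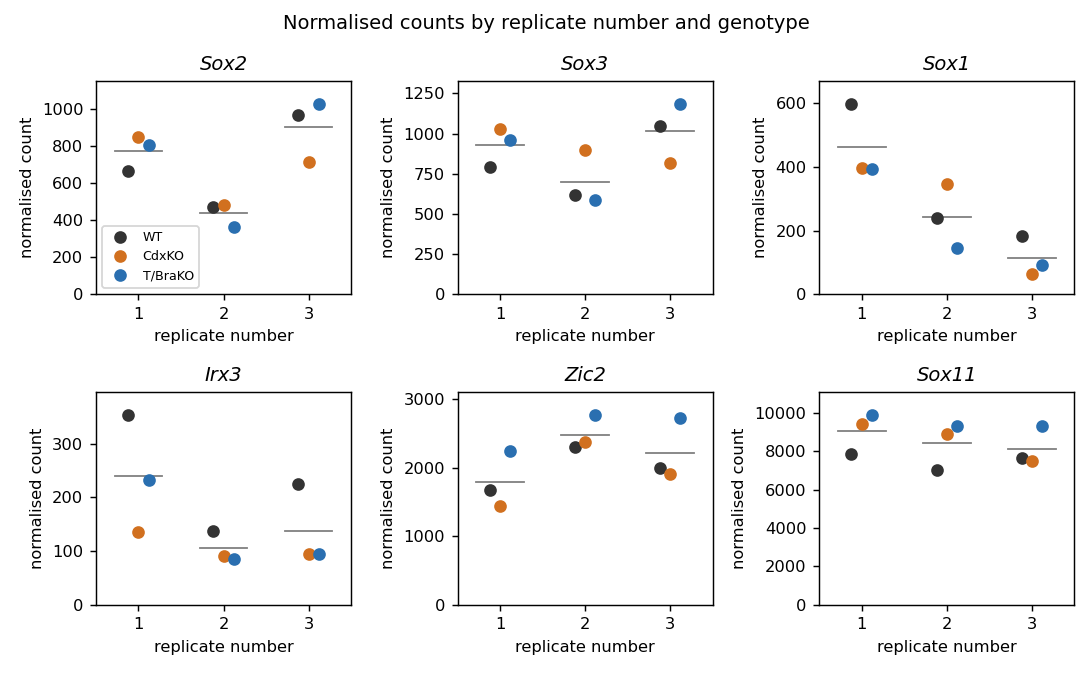
Normalised counts of 6 genes by replicate number, one point per library coloured by genotype, with a grey line at the mean of each number. Sox2 is lowest in number 2, Sox1 in number 3 and Zic2 in number 1 in all 3 genotypes, and Irx3 is highest in number 1.

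**Figure D4:**
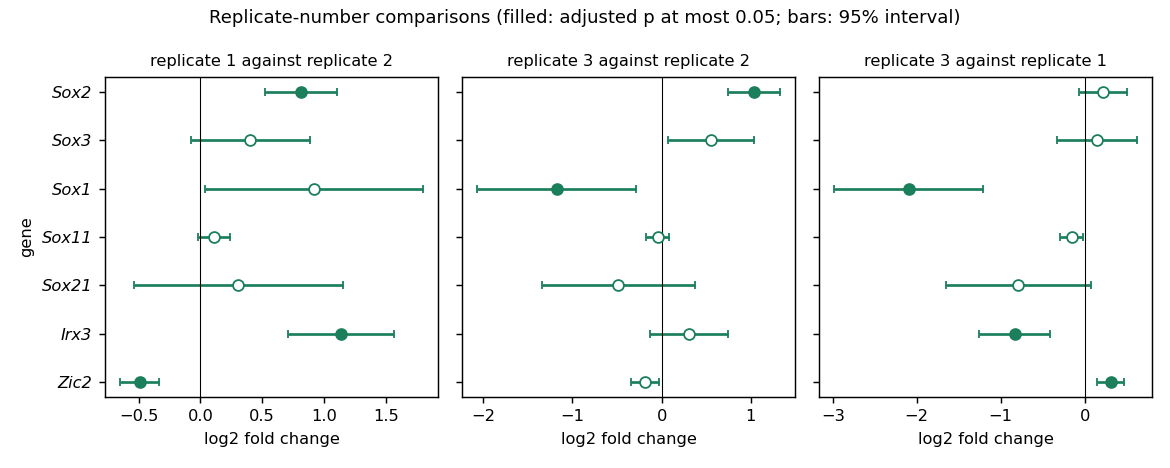
Log2 fold changes of 7 genes between replicate numbers with 95% intervals, from the DESeq2 fit with genotype and number, filled where the adjusted p was at most 0.05. Sox2 is higher in numbers 1 and 3 than in number 2, and Sox1 is lower in number 3 than in number 1 by 2.09.

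By count, 3 of the 7 genes with an adjusted p passed between numbers 1 and 2, against 30.4% of all genes tested. Between numbers 3 and 2 it was 2 of 8 against 41.9%, and between numbers 3 and 1 it was 3 of 7 against 17.2%. The edgeR test called 4, 4 and 3 members, against 36.9%, 50.9% and 20.7% of genes. With 7 or 8 genes tested, no count is read as a result about the set. Over all members, those without an adjusted p included, the median absolute log2 difference was 0.49, 0.36 and 0.31 in turn. Over all genes tested it was 0.19, 0.25 and 0.14.

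How far each gene varied with genotype and with replicate number was described by its sums of squares over the 9 libraries, on log2(normalised count + 1). For Sox2, genotype took 0.0349% and replicate number 84.4%. For Sox1 the shares were 10.0% and 75.9%, and for Sox3 6.05% and 51.7%. The SoxB1 genes thus varied mostly with the replicate number. Zic2 (46.0% and 47.8%) and Irx3 (45.1% and 46.8%) were close to even, and Sox11 varied mainly with genotype (68.4% and 15.5%). The median over 12316 genes was 21.7% for genotype and 58.4% for replicate number, and in 72.4% of them the number had the larger share.

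**Figure D5:**
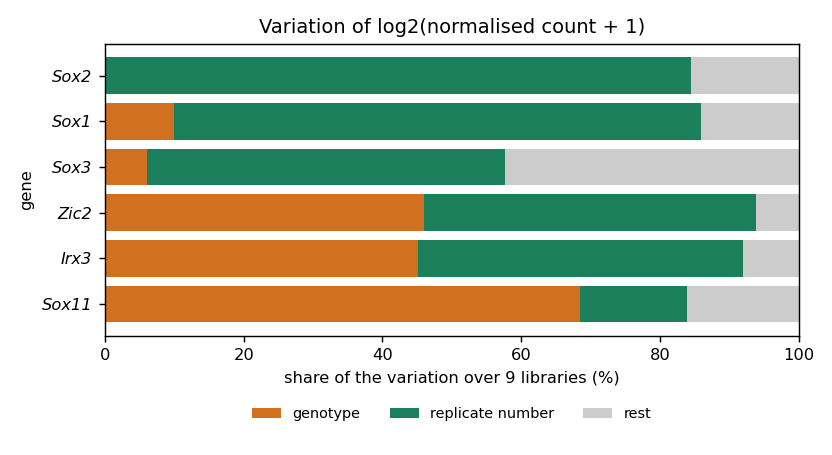
Share of the variation of 6 genes over 9 libraries that went with genotype, with replicate number or with neither, in percent, from the sums of squares of log2(normalised count + 1). Sox2 has almost no share for genotype, and Sox11 has the largest share for genotype of the 6, at 68.4%.

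Some other neural genes were also called between numbers. By direction, DESeq2 called 16.6% of all genes higher and 13.8% lower in number 1 against number 2, 21.8% and 20.1% in number 3 against number 2, and 8.03% and 9.17% in number 3 against number 1. Of the other neural progenitor genes, 8 of 14 tested rose in number 1 against number 2 and 6 of 16 in number 3 against number 2, and none fell in either. Cdh2 rose by 0.92 and 0.62, Sp8 by 0.45 and 0.66 and Fabp7 by 1.37 and 1.56 in the 2 comparisons (adjusted p of 9.17e-08 or less in DESeq2). Msx1 rose by 1.45 in number 1 against number 2 (adjusted p = 2.47e-07). Among the other Sox genes, 5 of 11 tested rose and 1 fell in number 1 against number 2. In number 3 against number 2, 5 of 13 rose and 1 fell. Sox13 rose by 1.02 and 1.08 in turn (adjusted p = 1.09e-15 and 3.16e-18 in DESeq2). The SoxC gene Sox4 rose by 0.64 and 0.38 (adjusted p = 3.19e-12 and 4.02e-05), while Sox12 passed in neither. Sox6 went the other way (-0.61 and -2.10, adjusted p = 0.0458 and 1.13e-13). Otx2, an epiblast and anterior neural gene, was higher in number 3 than in number 2 by 1.90 and than in number 1 by 2.02 (adjusted p = 4.39e-18 and 1.81e-18). Of the neuronal genes, 2 of 10 rose between numbers 1 and 2, among them Dcx by 1.86 (adjusted p = 1.10e-07), and 4 of 11 rose and 1 fell between numbers 3 and 2. With so few genes, these neuronal counts were not far from the shares of all genes and are not read as a result.

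Markers of other states were also called between numbers. Of all genes tested, 16.6% were higher and 13.8% lower in number 1 against number 2. These shares were 21.8% and 20.1% in number 3 against number 2, and 8.03% and 9.17% in number 3 against number 1. Counts near these shares are not read as results about a list. Of the 10 pluripotency genes, 6 fell and none rose in number 1 against number 2, among them Nanog by 1.42 (adjusted p = 1.90e-14), Esrrb by 1.65 (adjusted p = 1.30e-17) and Tfcp2l1 by 1.17 (adjusted p = 4.29e-32, DESeq2). In number 3 against number 2, 5 of 10 fell and 1 rose. In number 3 against number 1, 5 of 10 rose and none fell, Nanog by 0.84 (adjusted p = 3.57e-05) and Pou5f1 by 0.53 (adjusted p = 3.56e-13). Of the 10 caudal epiblast genes, 5 rose and none fell in number 1 against number 2, Cdx2 by 1.14 (adjusted p = 6.16e-42), and 6 rose and 1 fell in number 3 against number 2. In number 3 against number 1 the 1 that passed was Cdx2, lower by 0.79 (adjusted p = 1.3e-19). Of 9 paraxial mesoderm genes tested in both, 6 rose and none fell between numbers 1 and 2, and 3 rose and 1 fell between numbers 3 and 2. Between numbers 3 and 1, 3 of 7 tested fell and none rose. Of the other neural progenitor genes 1 of 14 rose and 2 fell between numbers 3 and 1.

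Markers of cells outside the epiblast were read as summed levels. Surface ectoderm genes, led by Krt8 and Krt18, which are not restricted to that tissue, summed to 322 to 797 TPM in number 1, 528 to 738 in number 2 and 164 to 448 in number 3, and Trp63 had 0.12 TPM or less. Fibroblast genes, which stand for the feeder cells on which ES cells are kept, summed to 54.5 to 57.7, 46.1 to 77.9 and 33.0 to 41.8 TPM. Endoderm genes summed to 6.77 to 15.7, 4.06 to 9.71 and 11.6 to 24.7 TPM, and neural crest genes to 15.0 to 26.2, 23.4 to 27.4 and 12.5 to 20.6 TPM. The share of counts on the ribosomal RNA gene Rn45s was 1.69% to 4.21% in number 1, 0.492% to 0.992% in number 2 and 0.343% to 0.699% in number 3. The part of these markers and of Rn45s in the levels of Sox2, Sox1, Irx3 and Zic2 was not tested.

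The genes most like each member were sought over the 9 libraries, by the smallest root mean square difference between centred log2(normalised count + 1) among 12315 other genes with a mean of at least 50. For Sox2 the nearest were Pcolce2 (0.121), Chrd (0.127), Col26a1 (0.134), P2rx5 (0.146) and Mef2c (0.146), where the spread of Sox2 itself was 0.484. For Sox3 the nearest was Grm4 (0.125), for Sox11 Smox (0.0722), for Irx3 Tenm4 (0.320) and for Sox1 Dcc (0.407). Zic2 was nearest to its neighbour Zic5 (0.0520, against a spread of Zic2 of 0.295). Among the members with a mean of at least 50, Sox2 and Sox3 were the closest pair at 0.247 and Sox1 and Zic2 the most distant at 1.17. Sox21, Pax6 and Pax3 had lower means and were not compared. All points share the 9 libraries, so a shared dependence on the replicate number is part of each likeness.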

How the data were processed

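Poly(A) RNA of 9 CEpiLC cultures was sequenced by the authors as strand-specific single-end reads, trimmed with cutadapt 1.16 and quantified against mm10 RefSeq genes with STAR 2.5.2a and RSEM 1.3.0. The authors deposited expected counts, which need not be whole, and TPM. The deposited TPM, scaled to transcript length within a library, served for levels only and was not tested. The expected counts were rounded and tested in R 4.3.3 with the two-sided Wald test of DESeq2 1.42.0 (default size factors, unshrunken log2 fold changes, Benjamini-Hochberg adjusted p of at most 0.05 over all genes), on genotype alone over 9 libraries. The replicate number was added as a block, since all 9 same-numbered pairs correlated above 0.1. A different-numbered pair, WT replicate 3 with CdxKO replicate 1, also lay above that value (0.134). Numbers came from the library titles. A gene whose adjusted p DESeq2 left undefined counts as not tested. Alternatives were edgeR 4.0.16, TMM factors, a filter of 10 counts in at least 3 libraries, no independent filtering, fits to 6 libraries and leaving out each library. The scripts were tested on simulated counts.

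The members and lists were chosen with earlier results of these data known. Named beside the 9 members are up to 4 passing genes per list and comparison by adjusted p, with at least 50 normalised counts on average, some relatives given as levels or tests, and genes nearest in pattern. Hes5, Hes3, Msi1, Nes, Pou5f1 and Olig2, given as levels, Hprt, Ddx3y, Trp63 and Rn45s were added as marker or quality values. With 3 counts as a floor, a library resolves 0.0864 to 0.119 CPM, counting error only.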

Additional observations from a re-analysis of the deposited data

Results flagged for a closer look

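Zic2 differed between the CdxKO and T/BraKO libraries when the replicate number was in the fit. By DESeq2 with the replicate block, CdxKO had less Zic2 than T/BraKO by -0.45 on the log2 scale (SE 0.08, adjusted p = 6.28e-07), in 3 of 3 same-numbered pairs (-0.64, -0.22 and -0.52). Against WT, Zic2 differed by 0.38 in T/BraKO and by -0.07 in CdxKO. Without the block the direct difference was -0.43 (adjusted p = 0.337) and did not pass. The 2 lines also differed in Ddx3y and Hprt, so line and mutation cannot be told apart.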

How the results depend on the processing

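The replicate block decided the genotype calls. With genotype alone 0 of 9 genes passed in each genotype comparison, and with the block 1 passed in CdxKO against WT, 3 in T/BraKO against WT and 1 in CdxKO against T/BraKO, by DESeq2 and by edgeR alike. TMM factors, the count filter and no independent filtering left each of these 3 counts at 0. Fits to the 6 libraries compared gave 1 call in T/BraKO against WT (Sox11, adjusted p = 0.0213) and 0 in the other 2 comparisons. Leaving out each library gave 0 to 1 calls without the block in CdxKO against T/BraKO and in T/BraKO against WT, and 0 in CdxKO against WT. Leaving out each library under the block, a combination added after seeing the data, gave 1 to 3 in CdxKO against WT, 2 to 4 in T/BraKO against WT and 1 to 1 in CdxKO against T/BraKO. The highest count in CdxKO against WT came without CdxKO replicate 3.

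Over all genes, the block moved the DESeq2 counts from 116 to 736 in CdxKO against WT, from 205 to 1237 in T/BraKO against WT and from 558 to 2187 in CdxKO against T/BraKO, and those of edgeR from 16 to 681, 56 to 1383 and 237 to 2732.

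Between numbers 1 and 2 the count of 3 became 5 with only the 6 libraries compared, and between numbers 3 and 2 the count of 2 became 4 with edgeR and 1 with only 6 libraries. Between numbers 3 and 1 the count of 3 became 1 without the genotype term. Leaving out each library gave 2 to 5, 1 to 3 and 1 to 5 in turn. The highest counts came without CdxKO replicate 3, and equally without CdxKO replicate 2 (numbers 1 and 2, 3 and 2) or T/BraKO replicate 2 (numbers 3 and 2). The lowest came without T/BraKO replicate 1 between numbers 1 and 2, without that library, T/BraKO replicate 3 or WT replicate 1 between numbers 3 and 2, and without T/BraKO replicate 3 between numbers 3 and 1. The other settings kept these counts within 1.5 times, and no member called in either fit changed direction under any of these settings. The causes were not tested. Depth limits Pax6, under 10 counts in 9 of 9 libraries, and Pax3, in 8 of 9.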
